A study of Mus musculus with 6 samples.

Results

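The mitochondrial ribosomal proteins were taken from the deposited liver expression table by their symbols, Mrpl or Mrps followed by a number. The rule found 77 genes, 47 with an Mrpl and 30 with an Mrps symbol, among 22481 symbols on 22564 table lines. All of the libraries were made from liver of 10-week-old males of C57BL/6J, a common inbred laboratory strain, and no genetic change or drug is named for either group. The fed group of 3 libraries had free access to food, and the fasted group of 3 libraries had gone without food for 16 h when the liver was taken. Whether the libraries stem from separate mice is not stated, and p-values therefore cover only the spread among these libraries. Values of single libraries are given in the order of libraries 1, 2 and 3 of each group.

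Mitochondria carry their own ribosome, which translates the few membrane proteins of the respiratory chain that are still encoded by mitochondrial DNA. Its ribosomal RNAs come from mitochondrial DNA, whereas all of its proteins are encoded in the nucleus, made in the cytosol and imported. The large subunit forms peptide bonds and the small subunit reads the messenger RNA, and both combine proteins that descend from the bacterial ribosome with proteins that have no bacterial counterpart at their place. Hepatocytes are rich in mitochondria, which oxidise fatty acids and support gluconeogenesis during a fast, and the comparison asked how the transcripts for this machinery stood in fed or fasted liver.

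Symbols and subunits do not match throughout. Mrps30 and Mrps18a were named as small-subunit proteins but sit in the large subunit, so they were counted there, and Mrps36, which is also known as a component of the 2-oxoglutarate dehydrogenase complex, was counted in neither. This left 49 genes for the large and 26 for the small subunit. Of these, 46 have a bacterial counterpart and 29 are specific to mitochondria, a class that here takes in Mrps18a and Mrps18b, relatives of bacterial S18 that sit elsewhere in the ribosome. Mrps36-ps1, named as a pseudogene of Mrps36 and with 0 to 3 counts in a library, did not pass the filter on low counts, so 76 genes were tested. Reads of Mrps36 and Mrps36-ps1 may be shared, and the values of Mrps36 are uncertain to that extent.

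The nuclear genes for these proteins are scattered. GENCODE M21 places 76 of the 77 on GRCm38, the exception being Mrpl33, and they lie on 17 chromosomes, with 10 genes on chromosome 11 and 9 on chromosome 17. Many start next to a gene that runs the other way. For 32 of the 76 placed genes (42.1%) a gene on the opposite strand started within 1000 bases in this head-to-head arrangement, against 10.9% of 21951 protein-coding genes. The neighbours included other genes of the organelle. Mrpl46 and Mrps11 share a start region, Mrps12 faces Sars2 (the mitochondrial seryl-tRNA synthetase), Mrps27 faces Ptcd2 (a mitochondrial RNA-binding protein), Mrpl36 and Mrpl47 face the complex I genes Ndufs6 and Ndufb5, and Mrpl43 faces Twnk, the mitochondrial DNA helicase.

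Promoter letters are shown for 5 genes, 2 of them (Mrps27 and Mrps12) for the stretch shared with a head-to-head neighbour, Mrpl12 and Mrpl45 for a motif known from nuclear genes of mitochondria, and Mrps25 as the gene with the lowest estimate in fasted liver. Mrpl45 was chosen for its motif and after its values were seen. The sequences are from RefSeq on GRCm38.p6, run 5′ to 3′ on the strand of the named gene, end at or just before its start and hold no annotated exon. Capitals mark a match to a searched motif on either strand.
Mrps25, chr6:92184034-92184183, minus strand: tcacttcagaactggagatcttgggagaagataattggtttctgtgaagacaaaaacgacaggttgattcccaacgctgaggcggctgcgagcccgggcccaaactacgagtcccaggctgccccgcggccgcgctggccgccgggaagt
Mrps27, chr13:99344706-99344785, plus strand: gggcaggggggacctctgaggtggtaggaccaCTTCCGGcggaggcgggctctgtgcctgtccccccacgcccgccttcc
Mrps12, chr7:28741822-28741971, minus strand: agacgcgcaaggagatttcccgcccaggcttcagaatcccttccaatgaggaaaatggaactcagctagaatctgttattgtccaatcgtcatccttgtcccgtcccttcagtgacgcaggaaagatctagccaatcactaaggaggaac
Mrpl12, chr11:120484463-120484612, plus strand: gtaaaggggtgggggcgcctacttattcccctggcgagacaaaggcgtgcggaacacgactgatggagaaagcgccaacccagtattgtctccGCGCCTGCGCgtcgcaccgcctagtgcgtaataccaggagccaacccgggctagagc
Mrpl45, chr11:97315566-97315715, plus strand: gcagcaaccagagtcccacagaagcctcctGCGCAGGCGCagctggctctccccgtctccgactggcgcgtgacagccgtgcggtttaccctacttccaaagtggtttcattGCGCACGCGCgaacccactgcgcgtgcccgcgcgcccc

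The capitals in Mrpl12 and Mrpl45 are matches to the element of NRF1 (GCGC, then A and any base, then GCGC), a transcription factor known for nuclear genes of the respiratory chain. Those in Mrps27 are CCGGAAG read on the other strand, the core bound by ETS factors such as GABP. Over the RefSeq promoter entries, each 250 bases before to 50 bases after a start and searched on both strands, 67 of the 77 genes had an entry. The NRF1 element occurred in 12 of the 67 (17.9%) and in 5.19% of 27025 symbols with an entry. CCGGAAG occurred in 24 (35.8%, against 9.93%), a YY1 element (AAN followed by ATGGCGG) in 7 (10.4%, against 1.59%), and TATAAA, the TATA box, in 5 (7.46%, against 15.7%). A match describes the letters and not a bound site. Base composition differed too, with a median of 21 CG pairs and 58.0% G and C, against 7 and 52.7% over all symbols. The part of this in the motif shares was not tested. In the same entries the NRF1 element and CCGGAAG occurred in 25.8% and 24.2% of 66 nuclear respiratory chain subunits and in 9.68% and 40.3% of 62 cytosolic ribosomal proteins.

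The libraries held between 11157991 and 14771819 counts over the listed genes, so that 3 counts were worth 0.186 to 0.291 CPM, a unit in which counts are set against the TMM-scaled total of a library. The mitochondrial ribosomal proteins together took 0.240%, 0.201% and 0.167% of the counts in the fed and 0.174%, 0.166% and 0.191% in the fasted libraries. Counts of a tested gene in a library ran from 28 to 1428. The fed libraries differed among themselves. Saa1, a serum amyloid transcript of the acute phase response, was at 1904, 18334 and 28404 CPM in the fed and 13015, 13200 and 4273 CPM in the fasted libraries, and Alb was listed at 0 in fed library 2 and at 33310 to 72565 CPM in the other libraries. That 0 may be a failed estimate, since Alb is the main plasma protein of hepatocytes, and it sets the low end of the hepatocyte sum. Summed markers of hepatocytes (6 genes, Alb included) lay between 19353 and 69439 CPM in the fed and between 79831 and 97122 CPM in fasted liver, and without Alb (5 genes, a sum added after its 0 was seen) between 15564 and 19353 and between 24557 and 29585. The sums did not overlap either way. In fed and fasted liver the summed markers of macrophages (6 of 7 listed) lay at 276 to 354 and 254 to 346, of endothelial cells (5) at 162 to 239 and 149 to 197, of stellate cells (5) at 186 to 212 and 167 to 214, of lymphocytes (5) at 12.01 to 19.8 and 8.999 to 14.9, of erythroid cells (2 of 3 listed) at 26.1 to 153 and 41.1 to 60.2, and of cholangiocytes (4) at 2.12 to 40.7 and 1.73 to 4.66. No listed marker was at 0 in all libraries and none passed the test, and the part of any of these values in the results was not tested.

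The transcripts were moderately abundant and unequal. In FPKM, the deposited level scaled to transcript length and library size, the median over the 76 genes was 23.7, with quartiles of 13.9 and 39.2, and the highest gene stood 13.5-fold above the lowest. The median was 25.5 FPKM for large-subunit and 21.7 FPKM for small-subunit genes. For comparison, the 79 tested ribosomal proteins of the cytosol had a median of 230 FPKM and the 77 tested nuclear subunits of the respiratory chain one of 106 FPKM.

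Mrpl52, a large-subunit protein without a bacterial counterpart, had the highest mean level, at 81.3, 80.5 and 87.6 FPKM in the fed and 74.2, 70.4 and 69.3 FPKM in the fasted libraries. It was followed by Mrpl17 (mean 76.5 FPKM), the counterpart of bacterial L17, by Mrpl12 (72.0 FPKM), which forms the stalk that recruits translation factors, and by Mrps21 (70.6 FPKM), the most abundant of the small subunit. These neighbours in the order were not separated by more than their spread, since over the 6 libraries Mrpl17 ran from 68.6 to 92.0, Mrpl12 from 43.0 to 87.0 and Mrps21 from 44.5 to 96.0 FPKM. Mrpl20 followed at 61.4 FPKM, and in the small subunit Mrps24 at 52.9, Mrps34 at 43.3 and Mrps5 at 39.6 FPKM. Exons of Mrps24 overlap Urgcp on the same strand, and those of Mrps34 overlap Nme3 (same strand) and Mapk8ip3 (opposite strand). The values of Mrps24 and Mrps34 are uncertain to that extent. At the lower end stood Mrpl35, at 8.74, 5.604 and 5.43 FPKM in the fed and 5.55, 3.80 and 5.12 FPKM in the fasted libraries.

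The balance of the subunits was compared through summed levels. The summed FPKM of the large subunit, divided by that of the small subunit, was 2.03, 2.10 and 2.03 in the fed and 2.03, 2.10 and 2.17 in the fasted libraries, or 2.05 ± 0.0396 and 2.10 ± 0.0671 (mean ± SD, n = 3 each). The groups overlapped. Divided by the number of genes in each subunit, the ratio was 1.08 to 1.11 in the fed and 1.08 to 1.15 in fasted liver.

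Transcripts of the mitochondrial ribosome differed little between fasted and fed liver. No gene of the 76 passed an adjusted p of 0.05 in edgeR's quasi-likelihood test with Benjamini-Hochberg adjustment over all 11633 genes tested, in either direction. Over all genes, 2.52% passed, 164 higher in fasted liver (1.41%) and 129 lower (1.11%). On the FPKM columns with limma that split was 80 higher and 101 lower. At an unadjusted p under 0.05, 7 mitochondrial ribosomal proteins were lower (9.21%, against 10.8% of all genes) and 4 were higher (5.26%, against 11%). DESeq2 called 3 lower, namely Mrps25, Mrpl38 and Mrps27, which is 3.95% of the 76 with an adjusted p, against 3.93% of all genes. Limma on log2(FPKM + 1) called Mrps25 alone (1.32%, against 0.896% of all genes) and none higher (against 0.709%), and at an unadjusted p under 0.05 it had 9 lower (11.8%, against 11.8%) and none higher (against 6.96%). With upper-quartile factors edgeR had 10 lower (13.2%, against 13.4%) and 2 higher (2.63%, against 8.84%) at that level.

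The estimates were small and leaned to lower values. In 45 of the 76 genes (59.2%) the log2 fold change, fasted over fed, was below 0, against 51.3% of all tested genes. On FPKM with limma it was 54 (71.1%, against 57% of all genes), and with upper-quartile factors 51 (67.1%, against 57.8%). The median was -0.08, against -0.02 over all genes, and the estimates ran from -0.95 to 0.52. In 73 genes the estimate lay within 1.5-fold in either direction, the exceptions being Mrps25, Mrps27 and Mrps6. The median distance from the estimate to the bound of its 95% interval was 0.38 on the log2 scale. The interval stayed within 2-fold in either direction for 71 genes and within 1.5-fold for 41. In 10 genes every fasted library lay below every fed library in CPM (13.2%, against 13.7% of all genes), and in 6 every fasted library lay above (7.89%, against 15.3%). In FPKM 14 lay below (18.4%, against 16.1%) and 1 above (1.32%, against 9.65%).

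**Figure D1:**
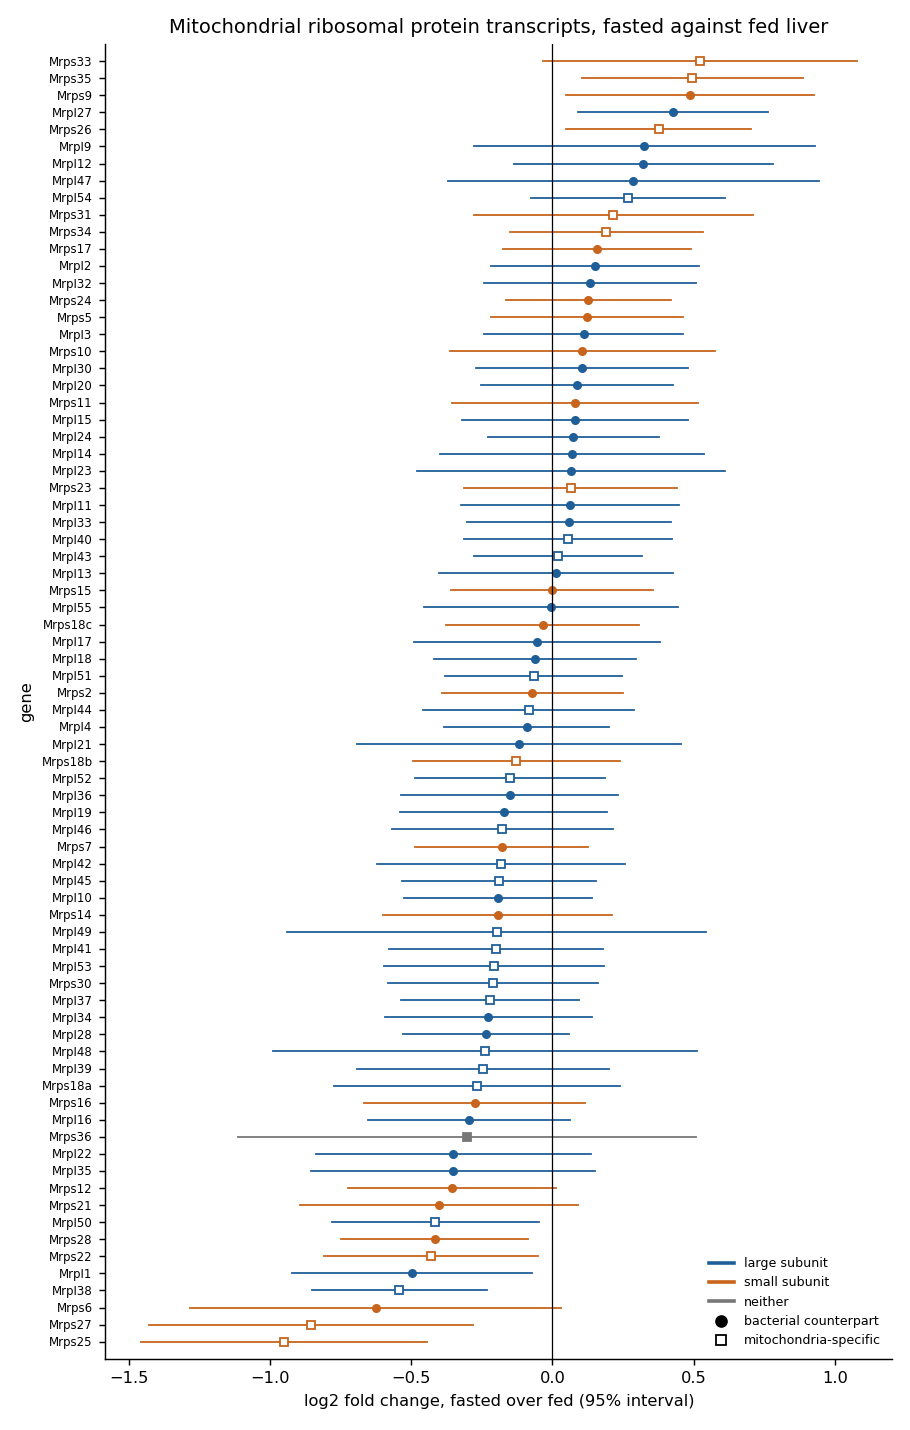
Log2 fold change, fasted over fed liver, of each of the 76 tested mitochondrial ribosomal protein genes (rows, sorted; x axis in log2 units), with its 95% interval from edgeR. Colour gives the subunit, filled circles a bacterial counterpart and open squares a mitochondria-specific protein (Mrps36, grey, neither). The estimates run from -0.95 to 0.52 and 73 of them lie within 1.5-fold.

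The 6 lowest estimates came from both subunits, mostly from the small subunit. Mrps25, a mitochondria-specific protein of the small subunit encoded on chromosome 6 at 92169525 to 92184033 (minus strand, GRCm38), was at 12.5, 9.57 and 10.5 CPM in the fed and 6.12, 4.39 and 6.32 CPM in the fasted libraries. All fasted libraries lay below all fed libraries. The means were 10.8 ± 1.49 and 5.61 ± 1.06 CPM (SD, n = 3 each), and the log2 fold change of -0.95 (SE 0.216, 95% interval -1.46 to -0.44) had an adjusted p of 0.0693. The adjusted p was 0.0167 with DESeq2 and 0.0367 with limma on log2(FPKM + 1), and over all alternatives it ran from 0.0167 to 0.207. An exon of Mrps25 overlaps one of Nr2c2 on the opposite strand (log2 fold change 0.14, adjusted p = 0.567 in edgeR), and since it is not given whether the counting used the strand, its counts are uncertain to that extent.

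Mrps27, a small-subunit protein with the pentatricopeptide repeats of RNA-binding proteins, spans 99344786 to 99415562 of chromosome 13 (plus strand, GRCm38). It was at 34.8, 21.9 and 23.4 CPM in the fed and 18.5, 14.4 and 11.5 CPM in the fasted libraries. The groups did not overlap, and fed library 1 stood above the other fed libraries. The log2 fold change was -0.86 (SE 0.245), with an adjusted p of 0.110 in edgeR and of 0.0432 in DESeq2. Ptcd2, which starts 81 bases away across the stretch printed above, was at 20.1 CPM in the fed and 16.2 CPM in fasted liver (log2 fold change -0.31, adjusted p = 0.282 in edgeR).

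Mrpl38, a mitochondria-specific protein of the large subunit encoded on chromosome 11 at 116131817 to 116138868 (minus strand, GRCm38), was at 48.0, 41.4 and 38.5 CPM in the fed and 28.1, 28.7 and 31.1 CPM in the fasted libraries. The groups did not overlap and the fasted libraries lay close together. The log2 fold change was -0.54 (SE 0.133) with an adjusted p of 0.0818 in edgeR and of 0.0407 in DESeq2. Without fed library 3 edgeR gave an adjusted p of 0.0426, and without the other libraries in turn 0.106 to 0.248.

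Mrps6, the counterpart of bacterial S6, was at 9.24, 6.84 and 6.88 CPM in the fed and 3.89, 4.21 and 6.75 CPM in the fasted libraries (log2 fold change -0.63, SE 0.281, adjusted p = 0.249 in edgeR). Fasted library 3 came close to fed libraries 2 and 3 without overlap. An exon of Mrps6 overlaps one of Slc5a3 on the same strand, which leaves the counts of Mrps6 uncertain. Slc5a3 was at 4.78 CPM in the fed and 3.29 CPM in fasted liver (log2 fold change -0.53, adjusted p = 0.519 in edgeR). Whether the 2 genes share reads was not tested. Mrpl1, which forms the mobile L1 stalk of the large subunit, was at 30.2, 21.3 and 23.3 CPM in the fed and 17.5, 15.5 and 19.99 CPM in the fasted libraries (log2 fold change -0.50, adjusted p = 0.172 in edgeR). Mrps22, a mitochondria-specific protein of the small subunit, was at 26.9, 24.2 and 22.9 CPM in the fed and 21.1, 15.2 and 18.8 CPM in the fasted libraries (log2 fold change -0.43, adjusted p = 0.184 in edgeR). In Mrpl1 and Mrps22 the fasted libraries also lay below the fed libraries. Mrps28 and Mrpl50, the remaining genes with an unadjusted p under 0.05 and a lower estimate, had log2 fold changes of -0.42 and -0.41 and were chosen after their values were seen.

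**Figure D2:**
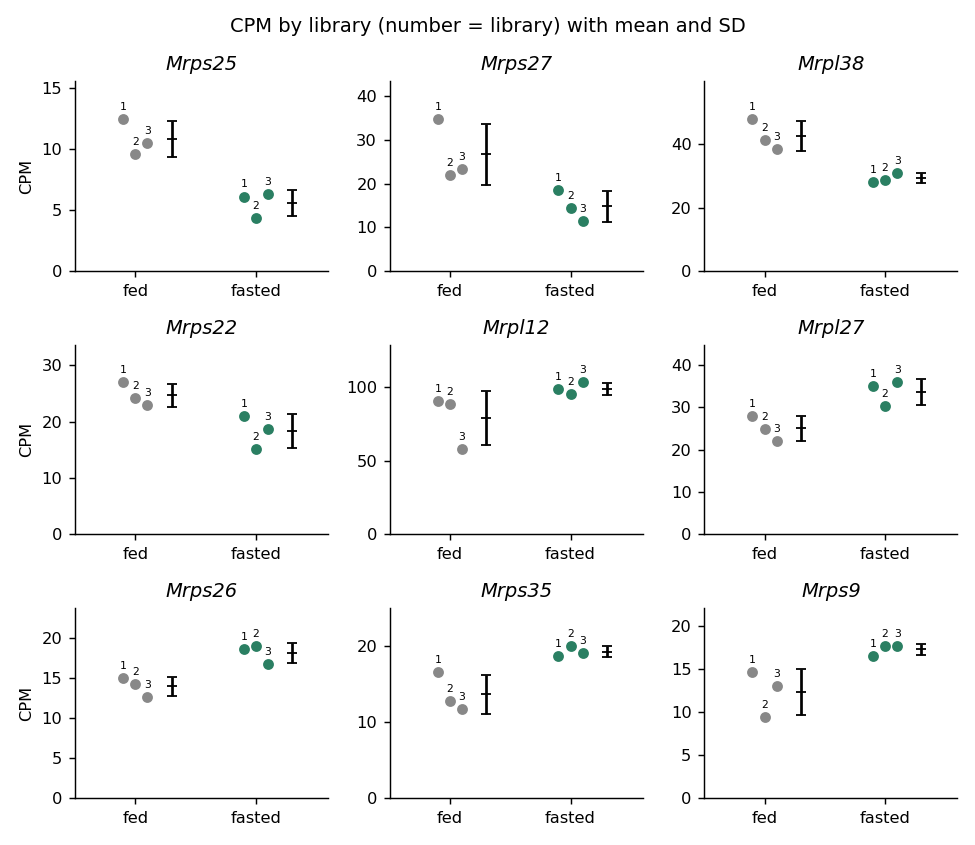
CPM (y axes, from 0) in each library of 9 mitochondrial ribosomal protein genes, fed in grey and fasted in green, with the library number above each point and the mean and SD of the 3 libraries beside them. The fasted points lie below the fed points in Mrps25, Mrps27, Mrpl38 and Mrps22 and above them in the other panels, and fed library 3 of Mrpl12 stands apart at 58.1 CPM. Only genes whose groups do not overlap in CPM are drawn, so the panels do not stand for the whole set. Of the 76 genes 10 were separated below (13.2%, against 13.7% of all genes) and 6 above (7.89%, against 15.3%). In FPKM the groups of Mrpl12 and Mrpl27 overlap.

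The genes with the highest estimates came from both subunits. Mrps35, a mitochondria-specific protein of the small subunit, was at 16.6, 12.7 and 11.7 CPM in the fed and 18.7, 20.02 and 19.1 CPM in the fasted libraries. All fasted libraries were higher in CPM, but the log2 fold change of 0.49 (SE 0.167) had an adjusted p of 0.152 in edgeR. Mrpl27, whose bacterial counterpart reaches into the peptidyl transferase centre, was at 28.01, 24.9 and 22.1 CPM in the fed and 34.97, 30.2 and 35.8 CPM in the fasted libraries (log2 fold change 0.43, SE 0.143, adjusted p = 0.150 in edgeR). Its groups did not overlap in CPM either, but in FPKM they did, with fed library 1 at 51.4 and fasted library 2 at 46.2. The exons of Mrpl27 overlap the opposite-strand gene Eme1, which did not pass the filter on low counts.

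Mrps9, the counterpart of bacterial S9, was at 14.6, 9.39 and 13.01 CPM in the fed and 16.5, 17.7 and 17.7 CPM in the fasted libraries (log2 fold change 0.49, adjusted p = 0.190 in edgeR). Mrps26, a mitochondria-specific protein of the small subunit, was at 15.03, 14.2 and 12.6 CPM in the fed and 18.7, 19.02 and 16.7 CPM in the fasted libraries (log2 fold change 0.38, adjusted p = 0.178 in edgeR). Both were higher in every fasted library in CPM, whereas in FPKM only 1 of the 76 tested genes was separated in that direction. Mrps33, also specific to mitochondria, had the highest estimate (log2 fold change 0.52, adjusted p = 0.254 in edgeR) at 12.8, 17.7 and 10.5 CPM in the fed and 18.4, 24.2 and 16.4 CPM in the fasted libraries. Its groups overlapped, with fed library 2 above fasted library 3.

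Mrpl9, the counterpart of bacterial L9, showed how far single libraries could set an estimate. It was at 46.6, 27.8 and 23.3 CPM in the fed and 36.6, 45.3 and 40.6 CPM in the fasted libraries (log2 fold change 0.33, SE 0.258, adjusted p = 0.503 in edgeR). Fed library 1 held the highest value of all. Mrpl12 was at 90.8, 88.8 and 58.1 CPM in the fed and 98.98, 95.002 and 103 CPM in the fasted libraries (log2 fold change 0.32, adjusted p = 0.381 in edgeR). Its fasted libraries were higher throughout in CPM, and fed library 3 lay far below the others. In FPKM its groups overlapped, at 78.9, 74.9 and 43.0 in the fed and 75.3, 73.1 and 87.0 in the fasted libraries.

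None of the other most abundant members passed the test in edgeR. Mrpl52, Mrpl17 and Mrpl20 had log2 fold changes of -0.15, -0.06 and 0.09, and Mrps21, Mrps24, Mrps34 and Mrps5 of -0.40, 0.13, 0.19 and 0.12, with adjusted p from 0.315 to 0.891 in edgeR. Mrps21 was at 27.8, 22.8 and 23.7 CPM in the fed and 21.1, 13.4 and 21.8 CPM in the fasted libraries, so that every fasted library lay below every fed library. The signs for Mrpl20 and Mrpl17 turned under other settings. The mammalian mitochondrial ribosome holds several relatives of bacterial S18, of which Mrps18a sits in the large and Mrps18b and Mrps18c in the small subunit. Their log2 fold changes were -0.27, -0.13 and -0.03, and the last changed sign when fed library 1 or fasted library 2 was left out. Mrps30 had a log2 fold change of -0.21 and Mrps36 of -0.30.

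By subunit, the median log2 fold change was -0.09 over the 49 large-subunit genes (30 below 0) and -0.02 over the 26 small-subunit genes (14 below 0). By symbol alone the medians were -0.08 for 47 Mrpl and -0.07 for 29 tested Mrps genes. Estimates of the small subunit were spread more widely (SD over genes 0.387, against 0.213 for the large subunit), with both the lowest and the highest estimates of the set. Over the alternatives the median of the large subunit ran from -0.17 to -0.02 and that of the small subunit from -0.11 to 0.01. The small-subunit median stood above 0 without fed library 1 or fasted library 1, and the large-subunit median was -0.02 without fasted library 2. No p is given for these medians, since genes are not replicates.

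Split by descent, the mitochondria-specific proteins of the large subunit, a class singled out after its values were seen, leaned to lower values, with 16 of 19 estimates below 0 (84.2%) and a median of -0.20. The exceptions were Mrpl40, Mrpl43 and Mrpl54, and none of the 19 passed edgeR's test with all libraries (Mrpl38 passed with DESeq2 and without fed library 3). Large-subunit genes with a bacterial counterpart had 14 of 30 estimates below 0 and a median of 0.04. In the small subunit the median was -0.05 for 16 genes with a bacterial counterpart and 0.13 for 10 mitochondria-specific genes, which hold Mrps25 and Mrps27 as well as Mrps33 and Mrps35. Over the alternatives the median of the mitochondria-specific large-subunit genes ran from -0.27 to -0.12 and the number below 0 from 14 to 18. That of the large-subunit genes with a bacterial counterpart ran from -0.06 to 0.07 with 12 to 20 below 0, and it was below 0 on FPKM (-0.05, 20 of 30), with upper-quartile factors (-0.03) and without fed library 2 (-0.06), fed library 3 (-0.05) or fasted library 3 (-0.03). In the small subunit the range was -0.14 to -0.0013 for genes with a bacterial counterpart (-0.0013 without fed library 1, -0.11 without fed library 2) and 0.0051 to 0.15 for mitochondria-specific genes (0.03 without fed library 1, 0.04 without fed library 2). These classes were not tested against each other.

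Fed library 1 stood above the others. Taking each gene's log2 CPM relative to its mean over the libraries, the median over the 76 genes was 0.15, 0.01 and 0.01 in the fed and 0.01, -0.10 and 0.02 in the fasted libraries. Fed library 1 held the highest value of the 6 libraries in 36 of the 76 genes and fasted library 2 the lowest in 19. The other libraries lay close together, and the groups overlapped. Without fed library 1 the median log2 fold change was -0.03, against -0.03 over all genes, and without fasted library 2 it was -0.02, against -0.03 over all genes. Fed library 1 was also the library with the lowest Saa1 and with the largest share of counts from mitochondrial DNA, 6.23%, against 3.68% to 4.83% in the other libraries, and the part of either in this result was not tested. In bulk tissue, fewer cells of a type and less RNA per cell cannot be told apart.

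**Figure D3:**
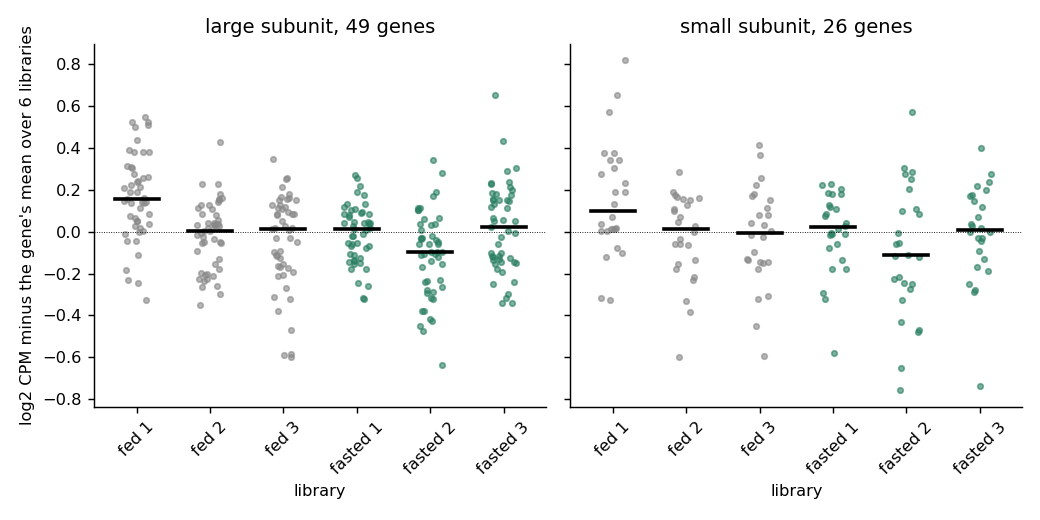
Log2 CPM of each gene minus its mean over the 6 libraries (y axis, log2 units) by library, for 49 large-subunit genes (left) and 26 small-subunit genes (right), fed in grey and fasted in green; bars are medians. In both subunits fed library 1 has the highest median (0.16 and 0.10) and fasted library 2 the lowest (-0.10 and -0.11), and the other medians lie near 0.

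Among the mitochondria-specific genes of the large subunit the library medians were 0.24, 0.03 and 0.09 in the fed and -0.06, -0.10 and -0.10 in the fasted libraries. Here the groups did not overlap, but the class was singled out after these values were seen, so this adds no separate support. Among the large-subunit genes with a bacterial counterpart they were 0.14, -0.05 and -0.03 in the fed and 0.04, -0.08 and 0.06 in the fasted libraries. In the small subunit they were 0.16, 0.01 and -0.0087 in the fed and 0.00042, -0.11 and 0.0086 in the fasted libraries for genes with a bacterial counterpart, and 0.03, 0.0069 and 0.03 in the fed and 0.08, -0.0030 and -0.05 in the fasted libraries for mitochondria-specific genes. The groups overlapped in these 3 classes.

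Ribosomal proteins of the cytosol and nuclear subunits of the respiratory chain had estimates on the other side of 0. Of 79 cytosolic ribosomal proteins 62 had an estimate above 0, with a median log2 fold change of 0.14, and of 77 respiratory chain subunits 63, with a median of 0.17, against 31 of 76 for the mitochondrial ribosomal proteins. No gene of either list passed the test in edgeR. At an unadjusted p under 0.05 in edgeR, 5 cytosolic ribosomal proteins were higher and 2 lower, and 4 respiratory chain subunits were higher and 0 lower. Over all tested genes 11% were higher and 10.8% lower at that level. DESeq2 called 3 and 1 higher (3.70% and 1.22%, against 4.4% of all genes). In CPM every fasted library lay above every fed library in 33 of the 79 cytosolic genes and below in 4. For the 77 respiratory chain subunits these numbers were 5 and 1, and over all genes the shares were 15.3% and 13.7%. Relative to each gene's mean, the cytosolic median was -0.10, -0.11 and 0.03 in the fed and 0.06, 0.07 and 0.08 in the fasted libraries, without overlap. The respiratory chain subunits spread with the libraries, their median being 0.26, -0.22 and -0.32 in the fed and 0.15, -0.13 and 0.29 in the fasted libraries, so that their groups overlapped. Over the alternatives the median ran from 0.08 to 0.20 for the cytosolic list and from 0.07 to 0.35 for the respiratory chain, the highest without fed library 1. Differences between the lists were not tested.

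**Figure D4:**
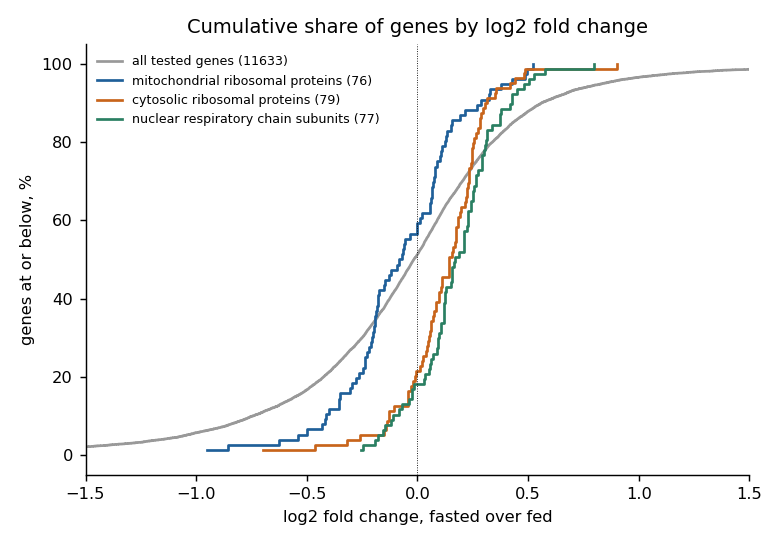
Cumulative share of genes (y axis, %) with a log2 fold change, fasted over fed, at or below the value on the x axis, for all 11633 tested genes (grey), 76 mitochondrial ribosomal proteins (blue), 79 cytosolic ribosomal proteins (orange) and 77 nuclear respiratory chain subunits (green). All of the lists are narrower than the whole table, with medians of -0.08, 0.14 and 0.17.

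Further proteins of the mitochondrial ribosome carry other symbols and were outside the rule. Of 6 tested, 5 had estimates below 0 (median -0.23, with -0.34 to -0.10 over the alternatives) and none passed the test in edgeR. Gadd45gip1, a large-subunit protein, was at 29.1, 26.97 and 27.5 CPM in the fed and 24.3, 16.8 and 16.6 CPM in the fasted libraries (log2 fold change -0.53, adjusted p = 0.149 in edgeR). Chchd1, of the small subunit, had a log2 fold change of -0.42 (adjusted p = 0.185 in edgeR). In both the fasted libraries lay below the fed libraries. Ptcd3 and Dap3, of the small subunit, and Ict1, of the large subunit, had log2 fold changes of -0.35, -0.10 and -0.08, and Aurkaip1 of 0.11.

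The enzymes that charge mitochondrial transfer RNAs gave the only call in edgeR among the partner lists. Tars2, the threonyl-tRNA synthetase, was at 22.6, 19.3 and 17.9 CPM in the fed and 11.9, 8.87 and 10.2 CPM in the fasted libraries. The fasted libraries lay well below the fed libraries, and Tars2 fell 1.93-fold (log2 fold change -0.95, SE 0.170, adjusted p = 0.0386 in edgeR). It did not pass with limma on FPKM, nor when any library but fed library 3 was left out. In all, 1 of 20 genes of this list was lower and 0 higher, against 1.11% and 1.41% of all tested genes. The list had 16 estimates below 0 and a median of -0.32 (-0.38 to -0.15 over the alternatives). Iars2, the isoleucyl-tRNA synthetase, had an estimate on the other side (log2 fold change 0.43, adjusted p = 0.149 in edgeR).

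In the other partner lists no gene passed edgeR's test. Among 13 translation factors (median 0.03, with -0.17 to 0.14 over the alternatives), 1 was higher and 2 lower at an unadjusted p under 0.05. Oxa1l, which inserts new mitochondrial proteins into the inner membrane, had a log2 fold change of 0.55 (adjusted p = 0.124), Tufm, the elongation factor that delivers transfer RNAs, of -0.39 (adjusted p = 0.134), and Mrrf, the ribosome recycling factor, of -0.44 (adjusted p = 0.160). Among 26 assembly and ribosomal RNA modification factors (median -0.11, with -0.23 to -0.02), 2 were higher and 1 lower at that level, and among 16 genes of mitochondrial transcription and messenger RNA handling (median -0.05, with -0.17 to 0.02) 3 and 2, with Tfb2m, a mitochondrial transcription factor, at 0.43 (adjusted p = 0.115). Over all tested genes 11% were higher and 10.8% lower at an unadjusted p under 0.05 in edgeR. DESeq2 called no gene of these lists.

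In edgeR with all libraries, the transcripts that the mitochondrial ribosome reads were not called either. Of the 13 listed messenger RNAs of mitochondrial DNA 12 were tested, since mt-Atp6 was listed at 0 counts, which may be a failed estimate. Their median log2 fold change was 0.16, and it ran from 0.00070 without fed library 2 to 0.54 without fed library 1. The mt-Nd6 transcript was at 54.95, 44.4 and 36.4 CPM in the fed and 76.9, 71.4 and 66.8 CPM in the fasted libraries (log2 fold change 0.66, adjusted p = 0.0959 in edgeR). All fasted libraries were higher. DESeq2 called mt-Nd6 (8.33% of the 12, against 4.4% of all genes higher), and so did edgeR without fed library 1 (274 of 11819 genes higher). Among 9 regulators of nuclear genes for mitochondria, Ppargc1a, the PGC-1 alpha coactivator, was at 6.77, 0.50 and 4.95 CPM in the fed and 21.3, 21.7 and 26.5 CPM in the fasted libraries (log2 fold change 2.52, SE 0.671, adjusted p = 0.0955 in edgeR). DESeq2 called Ppargc1a too (11.1% of the 9, against 4.4% of all genes higher). Its fasted libraries lay close together above a wide spread of fed libraries. Nrf1, the factor of the motif in Mrpl12 and Mrpl45, had a log2 fold change of -0.03 (adjusted p = 0.942 in edgeR). Mrpl12 had one of 0.32 and Mrpl45 one of -0.19. The 12 genes with the NRF1 element had a median of 0.09, and the 55 with a promoter entry but without the element one of -0.15. This difference was not tested.

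Head-to-head neighbours of the mitochondrial ribosomal proteins were measured in 28 of 32 cases, with the Mrpl46 and Mrps11 pair counted from either side. None of the neighbours passed the test in edgeR, and in 17 of the 28 pairs the estimates had the same sign. Mrps12, whose bacterial counterpart S12 takes part in decoding, and Sars2 had log2 fold changes of -0.36 and -0.33. Mrpl49 and its neighbour Fau, which starts 59 bases away and encodes a cytosolic ribosomal protein, had log2 fold changes of -0.20 and 0.45, and Mrps18b and Ppp1r10, a phosphatase regulator, of -0.13 and 0.97 (adjusted p of Ppp1r10 0.267 in edgeR). Since 27 of the 76 placed genes have an exon that overlaps one on the opposite strand and 7 one on the same strand, the values of such pairs may share reads.

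**Figure D5:**
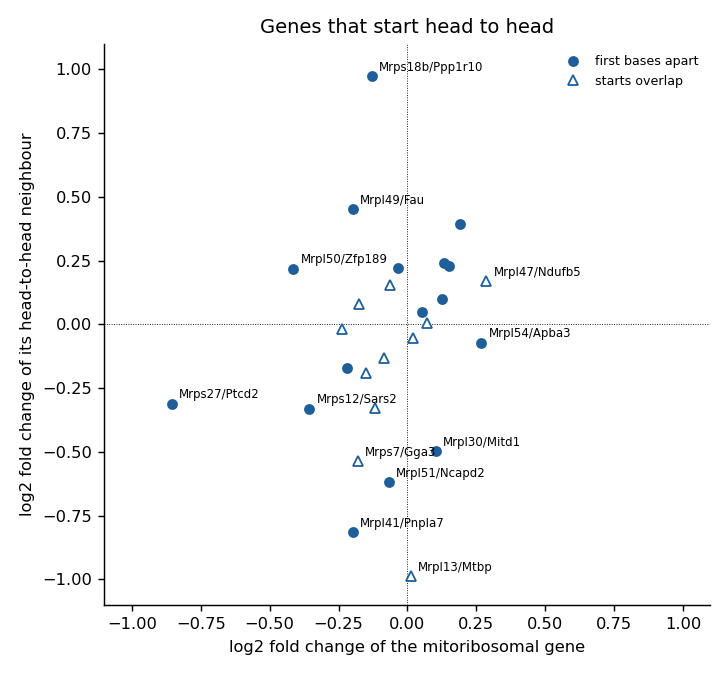
Log2 fold change, fasted over fed, of mitochondrial ribosomal protein genes (x axis) and of the gene that starts head to head with each (y axis). The 28 measured cases are shown, with the Mrpl46 and Mrps11 pair drawn once. Circles are pairs whose first bases lie apart, triangles pairs whose starts overlap. In 17 pairs both estimates have the same sign, and pairs such as Mrps18b and Ppp1r10 lie on opposite sides of 0.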

How the data were processed

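RNA was measured in 3 libraries of fed and 3 of fasted mouse liver, made from total RNA after removal of ribosomal RNA with a stranded kit, per the labels' protocols. Tools named in the submitters' processing notes are CASAVA 1.8 and TopHat2, with the human build hg19, although the table carries mouse Ensembl identifiers. The sources used here give neither the counting program nor how it treated strand. The authors deposited FPKM and estimated counts per gene, per the file headers, with 1 table line emptied for this work.

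In each library 90.1% to 91.0% of the estimated counts above 0 equalled a whole number of steps (tolerance 0.02), the step of a library lying between 0.840 and 1.18. They were divided by it and rounded to whole numbers, and lines that share a symbol (162) were summed. Fasted and fed libraries were compared with edgeR 4.0.16 in R 4.3.3 (quasi-likelihood test, TMM factors, filterByExpr at a minimum count of 10, no covariate, two-sided, Benjamini-Hochberg over 11633 genes, threshold 0.05). With 3 against 3 libraries an exact permutation test cannot give a p below 0.1, so none is printed. The scripts were tested on simulated data. Alternatives were DESeq2 1.42.0, RLE and upper-quartile factors, no filter, robust empirical Bayes, limma 3.58.1 on log2(FPKM + 1) and log2(FPKM + 0.1) (genes at 0.5 FPKM or more in 3 libraries, and without that filter), counts as deposited, a replicate block and leaving out each library.

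The genes and lists were chosen with earlier results of these data known. Named genes are those with the 6 highest and 6 lowest log2 fold changes at a mean count of at least 20, the 4 with the highest mean FPKM in each subunit, Mrps18a, Mrps18b, Mrps18c, Mrps30, Mrps36, those left out by the filter and, in each other list, up to 4 with the lowest p. A gene that this rule selects is not reported here. Coordinates are those of GENCODE M21, matched by identifier.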

Additional observations from a re-analysis of the deposited data

How the results depend on the processing

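The number of genes called over the whole table was 293. It was 1054 with DESeq2, 181 with limma on log2(FPKM + 1), 157 on log2(FPKM + 0.1), 40 on FPKM without a filter, and 3 to 754 with a library left out (497, 13 and 754 without fed library 1, 2 or 3, and 33, 3 and 30 without fasted library 1, 2 or 3). Mitochondrial ribosomal proteins called lower were 0, but 3 with DESeq2, 1 with limma at either pseudocount, and 0 to 1 with a library left out, and none was called higher under any alternative. Their median log2 fold change of -0.08 was -0.16 with limma on log2(FPKM + 1), with or without the filter, and -0.17 on log2(FPKM + 0.1). That of the large subunit was -0.17 on log2(FPKM + 0.1), and that of the small subunit -0.11 in each of the FPKM settings. Mrpl20 changed sign on FPKM (-0.00010 at the pseudocount of 1 with or without the filter, -0.00021 at 0.1) and, with a library left out, ran from -0.033 to 0.17. Mrps18c ran from -0.11 to 0.038 and Mrpl17 from -0.20 to 0.13 with a library left out. The cause was not tested.

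Same-numbered fed and fasted libraries deviated together with correlations of -0.07, 0.18 and -0.16, and differently numbered ones with -0.28 to 0.32. Deviations from the mean of 3 libraries are not independent, so these values cannot decide whether the shared number stands for a pairing. With that number as a replicate block 29 genes were called, no mitochondrial ribosomal protein among them, and the lowest adjusted p of these was 0.124. Tars2 was not called with the block either. With 3 libraries a group, estimates carried a median uncertainty of 0.38 on the log2 scale (95% interval), and the lowest estimate among these genes, -0.95, did not pass in edgeR.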
